A study of Coturnix japonica with 20 samples.

Results

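Genes for 5 proteins that the liver secretes into blood plasma were followed in the left lobe of the liver of Japanese quail (Coturnix japonica) embryos: albumin (ALB, gene 107313382), transferrin (TF, gene 107317970), retinol binding protein 4 (RBP4, gene 107316059), the alpha-1-microglobulin and bikunin precursor (AMBP, gene 107321625) and the alpha-2-HS glycoprotein, or fetuin-A (AHSG, gene 107318286). They were taken by gene identifier from a table of 16066 genes, and 5 of 5 passed the filter on low counts that left 13501 genes to test. Eggs received a single injection into the air cell at embryonic day 0, before incubation, of dimethyl sulfoxide (DMSO, the solvent) or of ethinylestradiol (EE2) at 3.33 µg per g of egg. EE2 is the man-made estrogen of many contraceptive pills. Livers were sampled at embryonic day 9. The groups were 5 solvent males, 4 EE2 males, 5 solvent females and 6 EE2 females, with 1 library each, and the study asks which liver responses to the estrogen depend on sex. The labels do not state that each library came from a separate embryo, so the p-values speak only to the spread among libraries, which may be technical. Only 1 dose and 1 age were sampled, and the labels name no strain.

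Hepatocytes make these proteins and release them into the circulation. Albumin carries fatty acids, hormones and many other ligands and is the chief protein of plasma, while transferrin delivers ferric iron to cells and, in chicken, the same gene also gives the ovotransferrin of egg white. RBP4 carries retinol away from the liver, and in egg-laying birds it also takes retinol to the yolk. The AMBP precursor is cut into a heme-binding lipocalin and into bikunin, the light chain of the inter-alpha-inhibitor complexes, and fetuin-A is a cystatin-family protein that is abundant in fetal plasma of mammals and keeps calcium phosphate in solution.

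Depth ran from 15298506 estimated counts in replicate 9 of the solvent females to 32119466, and each of the other libraries held at least 26776988. On the first principal component of log2 CPM (counts scaled to a depth of 1e6), with 29.4% of the variance, the solvent libraries lay between -41.62 and -26.4, and the EE2 libraries between 22.45 and 44.12 except EE2 male replicate 3, which lay at -1.45. The liver label was checked on 8 hepatocyte marker genes, which had counts in every library and summed to between 82610 and 287300 CPM. ALB, TF, AMBP and AHSG are themselves 4 of these 8 markers. Levels below are CPM on library sizes scaled by the trimmed mean of M-values (TMM), and they are compared between groups within a gene, not between genes, since transcript lengths were not used here.

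Among the 5 genes, ALB, TF and AMBP were lower in EE2 females than in solvent females, by 3.04-fold, 2.74-fold and 2.19-fold, and RBP4 was 1.32-fold higher. In EE2 males only RBP4 passed, and it was 1.66-fold higher than in solvent males. AHSG passed in neither sex. ALB and AMBP responded differently in the sexes by a direct test, a result lost when the fit also included the replicate number. With that number in the fit, 0 of all genes were called for this difference. Counts of calls were made with edgeR's quasi-likelihood test at a Benjamini-Hochberg adjusted p under 0.05. In females 1 of 5 members was called higher and 3 lower, where 10.2% and 10.1% of all genes tested were called higher and lower. In males 1 of 5 was called higher and 0 lower, against 2.24% and 1.03% of all genes, and 2 of 5 had an unadjusted p under 0.05, while the Wald test of DESeq2 and limma voom each called 1 of 5. The median log2 fold change over the 5 genes was -1.13 in females and 0.13 in males, beside medians over all genes of 0.0139 and -0.00643.

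**Figure D1:**
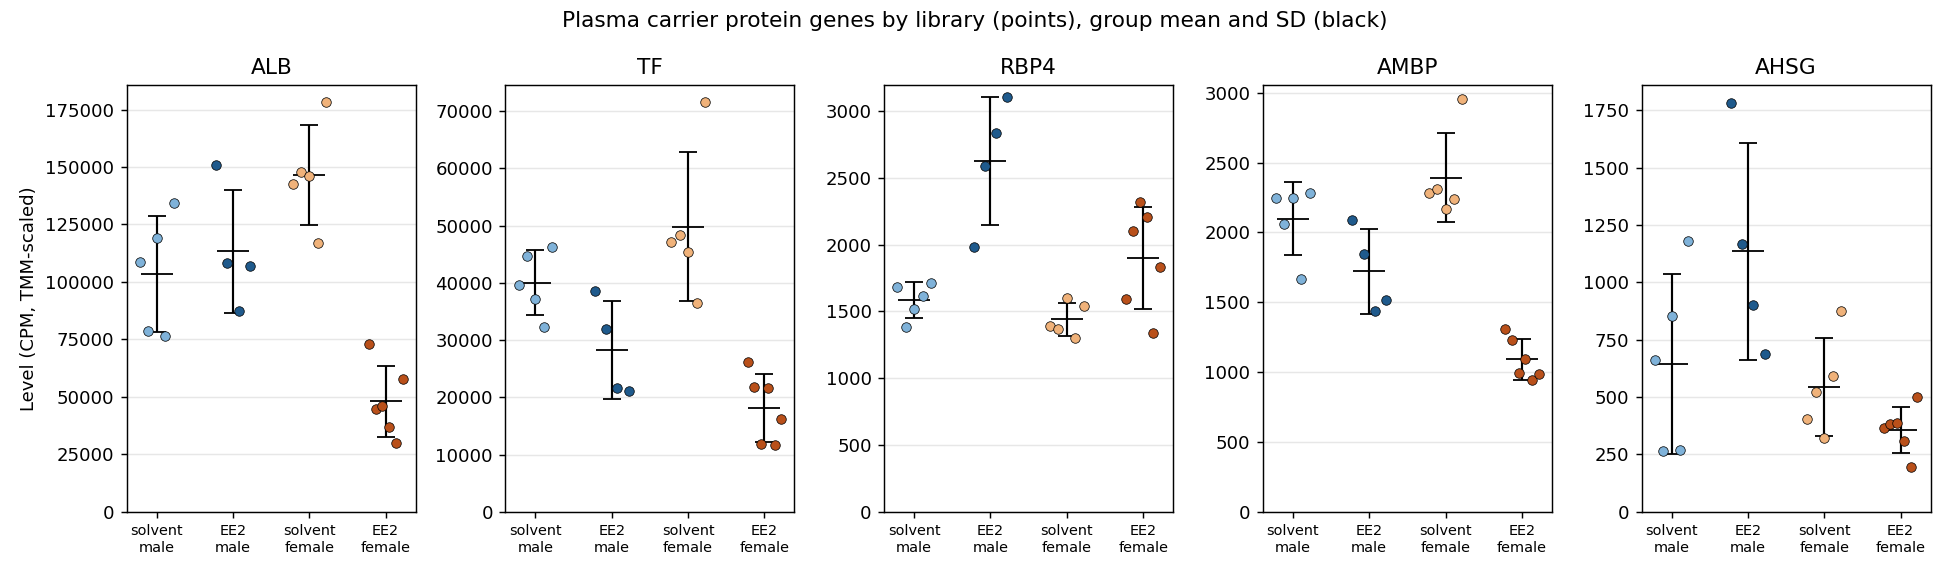
Level of each of the 5 genes in CPM (TMM-scaled, vertical axis from 0) in every library, by group, with the group mean as a bar and the SD as whiskers. ALB, TF and AMBP lie lower in the 6 EE2 females than in each solvent female, RBP4 lies higher in the 4 EE2 males than in each solvent male, and AHSG spreads over a wide range in both male groups.

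Albumin came first by estimated count, which is not corrected for transcript length. ALB had the highest estimated count of any gene in 18 of 20 libraries, and the exceptions were EE2 female replicates 8 and 9, where it ranked 2 and 3. In solvent females ALB stood at 142400, 148000, 146100, 117100 and 178300 CPM in replicates 3, 5, 6, 9 and 10. In EE2 females the lowest level was 30010 CPM, the median 45330 and the highest 73180. The groups did not overlap, and the highest EE2 female, replicate 1, lay well under the lowest solvent female. The log2 fold change was -1.61 (SE 0.212, 95% interval -2.048 to -1.164, adjusted p = 2.86e-05), with 6 of 6 EE2 females below the solvent range.

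In males the ALB groups overlapped. Solvent males held 108600, 78850, 119300, 76590 and 134300 CPM in replicates 1, 2, 4, 7 and 8. EE2 males held 150700, 108400, 87280 and 107000 CPM in replicates 3, 4, 5 and 6. Replicate 3, the EE2 male library nearest the solvent libraries on the first component, was the highest of its group, and the other EE2 males lay inside the solvent range. The log2 fold change in males was 0.13 (SE 0.232, 95% interval -0.355 to 0.616, adjusted p = 0.839), and it was -0.04 without EE2 male replicate 3.

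The share of a library taken up by the 5 genes together shows how large these transcripts bulk in the embryonic liver. Their summed share of the estimated counts was 14.36% ± 1.96 in solvent males (SD, n = 5), 13.85% ± 2.41 in EE2 males (n = 4), 18.35% ± 1.74 in solvent females (n = 5) and 7.808% ± 2.05 in EE2 females (n = 6). EE2 females ranged from 5.174% to 11.19%, below the lowest library of every other group, which was an EE2 male at 11.58%. ALB alone took 13.42% ± 1.04 in solvent females and 5.395% ± 1.65 in EE2 females. A share this large moves the shares of the other genes in the same library, which is why the levels here use TMM scaling. The normalisation factors of EE2 females lay between 1.091 and 1.173, and those of solvent females between 0.804 and 0.9943.

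**Figure D2:**
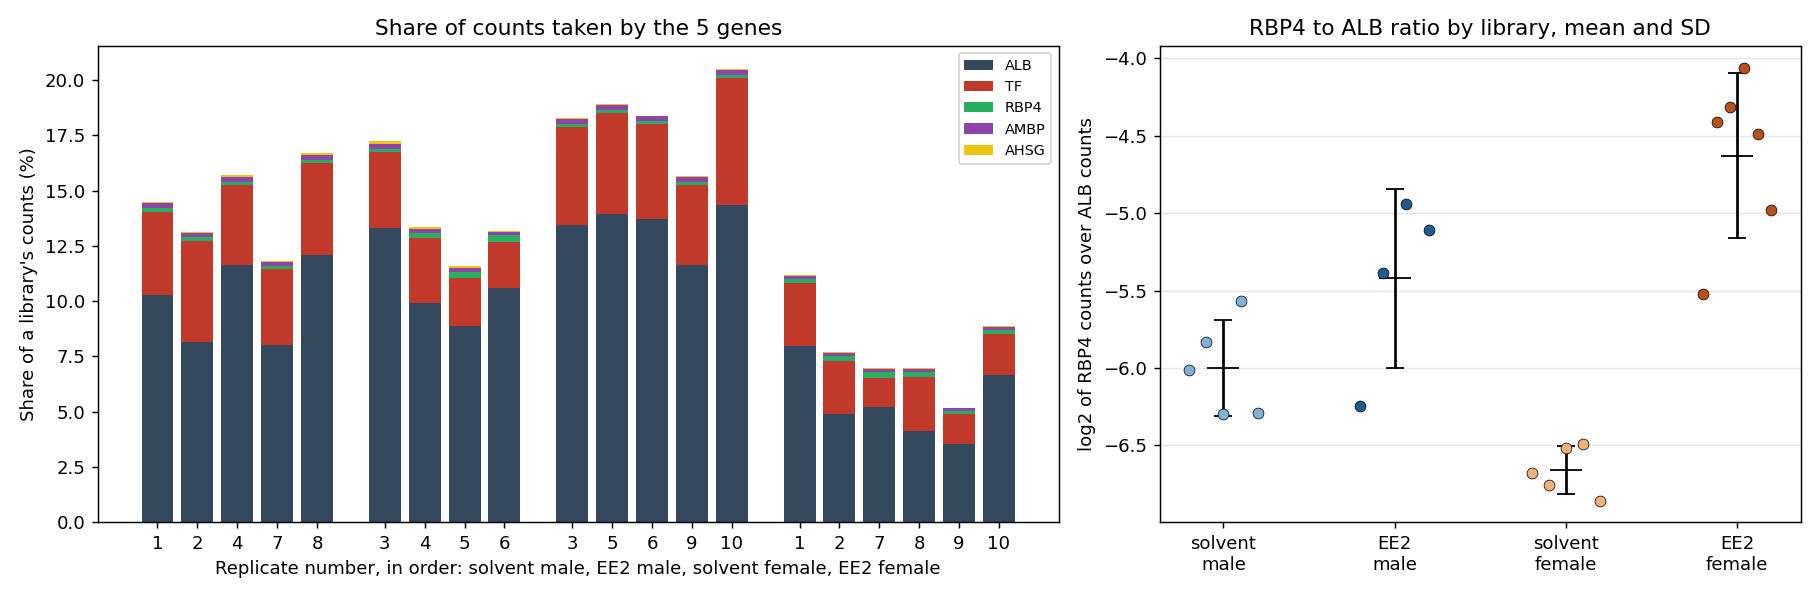
Left, share of each library's estimated counts (percent, axis from 0) taken by the 5 genes, stacked, by replicate number within the 4 groups. Right, log2 of RBP4 counts over ALB counts in each library, with group mean and SD. EE2 females have the shortest stacks, 5.174% to 11.19%, and their mean RBP4 to ALB ratio of -4.63 lies above the -6.66 of solvent females.

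Transferrin followed albumin in females. TF stood at 47130, 48400, 45480, 36490 and 71600 CPM in solvent female replicates 3, 5, 6, 9 and 10. In EE2 females it ranged from 11630 to 26090 CPM with a median of 18900. No EE2 female reached the solvent range, in which replicate 10 was the high library and replicate 9, the library of lowest depth, the low one. TF fell by 1.45 on the log2 scale (SE 0.224, 95% interval -1.921 to -0.985, adjusted p = 0.000139). TF had the second highest count in 10 of 10 solvent libraries and in 1 of 10 EE2 libraries, EE2 male replicate 3.

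Among males, TF was 39690, 44630, 37250, 32350 and 46280 CPM in solvent replicates 1, 2, 4, 7 and 8, and 38550, 31970, 21580 and 21050 CPM in EE2 replicates 3, 4, 5 and 6. In 3 of 4 EE2 males TF lay below each solvent male, and replicate 3 lay among them. The log2 fold change was -0.50 (SE 0.249, 95% interval -1.022 to 0.019) and did not pass (adjusted p = 0.321). Within a library, the log2 ratio of TF to ALB counts needs no scaling between libraries. Its mean was -1.35 ± 0.333 in solvent males (SD, n = 5) and -2.02 ± 0.242 in EE2 males (n = 4), with the highest EE2 male at -1.761 and the lowest solvent male at -1.679. In females the ratio was -1.58 ± 0.152 (n = 5) with solvent and -1.41 ± 0.461 (n = 6) with EE2, and the groups overlapped.

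RBP4 moved the other way. In solvent males RBP4 was 1684, 1382, 1518, 1615 and 1713 CPM in replicates 1, 2, 4, 7 and 8, and in EE2 males it was 1986, 2586, 2837 and 3105 CPM in replicates 3, 4, 5 and 6. Each EE2 male lay above the solvent males, with replicate 3 the closest to them. RBP4 rose by 0.73 on the log2 scale (SE 0.147, 95% interval 0.426 to 1.039, adjusted p = 0.00683). The annotation holds 3 coding sequences for RBP4, of which 1 had a count above 0 in any library, so the gene's level is the level of that coding sequence.

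The female RBP4 difference was smaller and less settled. Solvent females held 1393, 1368, 1599, 1302 and 1538 CPM in replicates 3, 5, 6, 9 and 10. EE2 females ranged from 1337 to 2320 CPM with a median of 1967. EE2 female replicates 1 and 9 lay within the solvent range and the other 4 of 6 above it. RBP4 stood 0.40 higher on the log2 scale (SE 0.134, 95% interval 0.120 to 0.678, adjusted p = 0.04). That call was lost when any 1 of solvent female replicates 3, 5, 9 and 10 or EE2 female replicates 2, 7, 8 and 10 was left out, with log2 fold changes between 0.33 and 0.42 and adjusted p-values up to 0.0926 in those fits, and in a fit of the female groups alone (0.40, adjusted p = 0.0619). As an unscaled share of counts, RBP4 lay between 0.1568% and 0.2619% in EE2 females and between 0.1237% and 0.1502% in solvent females, without overlap. Unscaled values were raised for other genes too. With library totals alone the median log2 fold change of all genes shifted by 0.285 in females.

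Set against albumin in the same library, RBP4 counts shifted in females without overlap between groups. The mean log2 ratio of RBP4 to ALB was -6.66 ± 0.157 in solvent females (SD, n = 5), with a highest library of -6.491, and -4.63 ± 0.532 in EE2 females (n = 6), with a lowest library of -5.523. RBP4 counts thus came to 0.994% of ALB counts on average with solvent and to 4.26% with EE2. In males the ratio was -6.00 ± 0.311 (n = 5) with solvent and -5.42 ± 0.579 (n = 4) with EE2, and EE2 male replicate 3, at -6.245, lay inside the solvent range. The mean log2 ratio of RBP4 to AMBP counts also shifted. It was -0.40 ± 0.216 in males and -0.73 ± 0.184 in females with solvent, and 0.61 ± 0.517 in males and 0.78 ± 0.344 in females with EE2, where the lowest EE2 male, at -0.074, lay inside the range of the solvent males. These ratios are descriptions, and no test was run on them.

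AMBP was the steadiest of the genes that fell. Solvent females held 2283, 2313, 2164, 2242 and 2955 CPM in replicates 3, 5, 6, 9 and 10, and EE2 females ranged from 945.8 to 1308 CPM with a median of 1043. Solvent female replicate 10 stood apart above the rest of its group, and no EE2 female came near the solvent range. AMBP fell by 1.13 on the log2 scale (SE 0.122, 95% interval -1.384 to -0.876, adjusted p = 3.29e-06). Males held 2246, 2059, 2246, 1663 and 2280 CPM with solvent, in replicates 1, 2, 4, 7 and 8, and 2090, 1843, 1434 and 1516 CPM with EE2, in replicates 3, 4, 5 and 6. The male groups overlapped, with 2 of 4 EE2 males below each solvent male, and the log2 fold change of -0.29 (SE 0.135, 95% interval -0.569 to -0.004) did not pass (adjusted p = 0.292).

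AHSG varied within groups more than the other 4 genes did, except in EE2 females. Solvent males held 660.3, 263.8, 854.7, 269.8 and 1179 CPM in replicates 1, 2, 4, 7 and 8, and EE2 males held 1782, 1168, 902.4 and 688 CPM in replicates 3, 4, 5 and 6. EE2 male replicate 3 lay above the solvent males and the other EE2 males inside their range. Solvent females held 402.4, 520.3, 322.7, 593.9 and 875.7 CPM in replicates 3, 5, 6, 9 and 10, and EE2 females ranged from 197 to 502.4 CPM with a median of 372.7. In females 2 of 6 EE2 libraries, replicates 8 and 9, lay below the solvent range. The log2 fold change was 0.81 in males (SE 0.407, 95% interval -0.039 to 1.668, adjusted p = 0.327) and -0.60 in females (SE 0.368, 95% interval -1.377 to 0.167, adjusted p = 0.274). Neither passed, and the width of both intervals leaves changes of more than 1 on the log2 scale within reach.

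Within-group spread set how small a change could be seen. The coefficient of variation (CV) of AHSG was 60.8% in solvent males, 41.8% in EE2 males, 39.3% in solvent females and 28.2% in EE2 females, where the median over 8172 genes lay between 10.7% and 12.1%. AMBP had a CV of 12.3% and 13.4% with solvent, and RBP4 of 8.53% and 8.59%, in males and females. With EE2 the CV of RBP4 was 18.2% in males and 20.1% in females. The biological coefficient of variation that edgeR estimated was 41.8% for AHSG, 25.7% for TF, 24.1% for ALB, 16.3% for RBP4 and 15.1% for AMBP, beside 24.5% common to all genes.

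**Figure D3:**
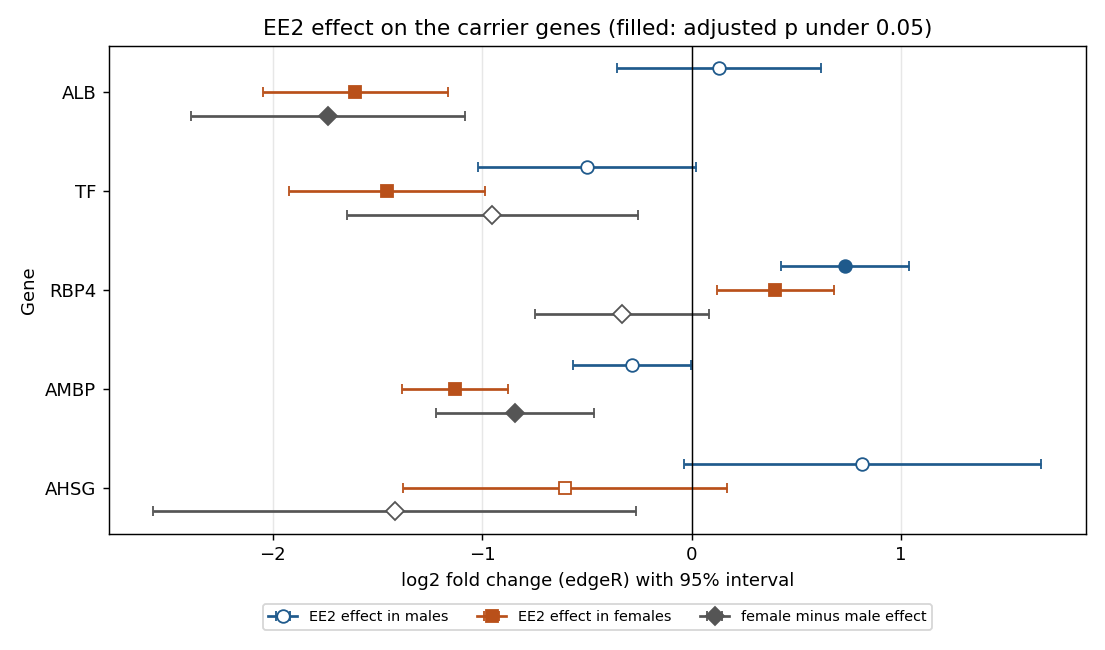
Log2 fold change of the 5 genes with its 95% interval, for the EE2 effect in males (circles), the EE2 effect in females (squares) and the female minus male effect (diamonds). Filled symbols passed an adjusted p under 0.05: ALB, TF, AMBP and RBP4 in females, RBP4 in males, and ALB and AMBP for the difference between the sexes.

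Whether the response depended on sex was tested as the female minus the male effect. This difference was -1.74 for ALB (SE 0.313, 95% interval -2.390 to -1.084, adjusted p = 0.0232) and -0.84 for AMBP (SE 0.181, 95% interval -1.221 to -0.466, adjusted p = 0.0334). Both had a lower value in females than in males, where neither had passed, and for this difference 2 of 5 members were called lower and 0 higher, where 0.8% of all genes were called lower and 0.259% higher. For TF the difference was -0.95 (SE 0.332, adjusted p = 0.176), for AHSG -1.42 (SE 0.549, adjusted p = 0.23) and for RBP4 -0.33 (SE 0.198, adjusted p = 0.481), and these 3 did not pass. The AMBP call was lost without any 1 of solvent male replicates 2 and 7, solvent female replicate 10, EE2 male replicates 3 and 4 and EE2 female replicates 7, 9 and 10, with values of -0.92 to -0.74 when each library was left out in turn and adjusted p-values up to 0.0955 among the lost calls. The ALB call held whichever of the 20 libraries was left out. The ALB and AMBP calls were both lost when the fit also included the replicate number. That fit called 0 of all genes for this difference, and its values were -1.79 for ALB and -1.23 for AMBP.

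Averaged over the sexes with equal weight, 3 of 5 genes were lower with EE2 and 1 was higher, where 10.3% of all genes were called in each direction. TF was lower by 0.98 on the log2 scale in this average (log2 fold change -0.98, SE 0.169, adjusted p = 0.000396), ALB stood at -0.74 (SE 0.158, adjusted p = 0.00244) and AMBP at -0.71 (SE 0.0914, adjusted p = 1.76e-05). RBP4 stood at 0.57 (SE 0.0993, adjusted p = 0.000467). For ALB the average joins a male value near 0 with a female fall, and AHSG at 0.11 (SE 0.275, adjusted p = 0.831) likewise joins values of opposite sign.

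Between the sexes, 3 of 5 genes passed with EE2 and none with solvent. In solvent livers 0 of 5 were called higher and 0 lower in females by edgeR, by the Wald test of DESeq2 or by limma voom, against 0.311% and 1.41% of all genes by edgeR. Of the 5, 1 had an unadjusted p under 0.05, ALB, with a log2 female over male value of 0.50 (SE 0.22, adjusted p = 0.475). The other values were 0.32 for TF, 0.19 for AMBP, -0.14 for RBP4 and -0.25 for AHSG. In EE2 livers 3 of 5 were called lower in females and 0 higher, against 4.25% and 2.21% of all genes. ALB was 2.36-fold lower in EE2 females than in EE2 males (log2 value -1.24, SE 0.221, adjusted p = 0.00157), AMBP stood at -0.66 (SE 0.128, adjusted p = 0.00368) and AHSG at -1.67 (SE 0.389, adjusted p = 0.014), each with 6 of 6 EE2 females below every EE2 male. The AHSG call was lost without EE2 male replicate 3 (-1.36, adjusted p = 0.0749). TF at -0.64 (SE 0.235, adjusted p = 0.115) and RBP4 at -0.47 (SE 0.14, adjusted p = 0.051) did not pass, and RBP4 passed with DESeq2's size factors, with a filter of at least 1 CPM in 4 libraries and with the Wald test of DESeq2. The EE2 libraries used here are the same as in the tests above, and these comparisons share them.

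EE2 male replicate 3 moved with several of these values. Of the 4 EE2 males it was the highest for ALB, TF, AMBP and AHSG and the lowest for RBP4, that is, nearest to the solvent males for TF, RBP4 and AMBP. Without it and solvent female replicate 9 together, a pair chosen after seeing the data, the female falls of ALB, TF and AMBP and the male rise of RBP4 kept their calls. Striated muscle markers also differed among EE2 livers: 5 of 7 were tested, and their summed level was 14.13 to 247.8 CPM in EE2 males, 16.9 to 27.09 in solvent males, 12.56 to 46.51 in solvent females and 3.89 to 18.13 in EE2 females, with MYL2 at 0 in 2 libraries. TNNC1 had means of 16.48 and 23.03 CPM in solvent males and females, and of 14.29 and 2.605 CPM in EE2 males and females. The other tested muscle markers, TNNT2, ACTC1, MYL2 and TTN, had a coefficient of variation of 141% to 150% in EE2 males. Their values in replicate 3 are not given here. Of all genes, edgeR called 2.24% higher in EE2 males. Calls for the muscle list differed by tool, with 3 of 5 higher in EE2 males by edgeR, 3 called by the Wald test of DESeq2 and 0 by limma voom. Between the sexes in EE2 livers, edgeR called 5 of 5 lower in females, where 4.25% of all genes were called lower. The Wald test called 5 of 5 there and limma voom 1. The part of the muscle markers in the values of the 5 genes was not tested.

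In a bulk liver sample, fewer cells of a type and less RNA per cell cannot be told apart. Over all genes, edgeR called 10.2% higher and 10.1% lower in females, and 2.24% and 1.03% in males. Of 8 hepatocyte markers, which include ALB, TF, AMBP and AHSG, 1 was called higher and 6 lower in females, and 1 and 2 in males. APOB was the higher one in both sexes, at a mean of 13030 CPM in solvent and 36190 in EE2 females, and 10620 and 38500 in males. APOA1, FGB and SERPINC1 were among the lower in females, and APOA1 and FGB were the 2 lower in males. Of the markers of other cell types, 3 of 5 tested cholangiocyte genes were called in females. SPP1, a secreted phosphoprotein of bile duct cells, rose by 2.40 (SE 0.307) and SOX9, a biliary transcription factor, by 1.86 (SE 0.335), and EPCAM fell by 0.60 (SE 0.124). The summed level of these 5 genes was 144.5 to 176 CPM in solvent females and 121.1 to 240.5 CPM in EE2 females, 121.4 to 159.4 in solvent males and 127.7 to 160.9 in EE2 males, and none was at 0 in any library. Of 9 mesenchymal and stellate cell markers 2 were called higher and 1 lower in EE2 females, with 3 called by each of the 3 tools, and their summed level was 1949 to 3119 CPM in solvent females and 2343 to 4444 CPM in EE2 females. In males 0 of these 9 were called by the 3 tools and 1 had an unadjusted p under 0.05, with summed levels of 2508 to 3308 CPM with solvent and 2194 to 4266 CPM with EE2. Of 6 listed kidney markers 3 were tested, and 1, CUBN, was called higher in EE2 females by edgeR, while 0 were called by limma voom. The summed level of the 3 was 27 to 75.81 CPM in solvent females and 29.39 to 137.2 CPM in EE2 females. In males edgeR and limma voom called 0 of the 3 and the Wald test of DESeq2 called 1. Their summed level was 30.95 to 79.26 CPM in solvent males and 51.35 to 155.2 CPM in EE2 males. CUBN and LRP2 also stood on a list of 6 yolk sac endoderm markers, of which 4 were tested, with APOA1 and AMN. In females edgeR called 1 of these 4 higher and 2 lower, and limma voom called 2. In males edgeR called 0 higher and 1 lower. AMN had a mean of 105.8 CPM in solvent females and 61.19 CPM in EE2 females. Of 10 endothelial, 7 macrophage, 3 erythroid and 2 granulocyte and lymphoid markers, 0 were called in EE2 females or EE2 males by edgeR, limma voom or the Wald test of DESeq2, and 1, 0, 0 and 0 of them reached an unadjusted p under 0.05 in each sex. Only 3 of 12 listed erythroid, 2 of 8 listed granulocyte and lymphoid and 7 of 9 listed macrophage markers were tested. The listed globin genes had no matching symbol. The part of the marker genes of other cell types in the falls of ALB, TF and AMBP was not tested.

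Transferrin's partners in iron handling were looked at as a list. Of 17 listed genes 14 were tested. In females 2 were higher and 4 lower, where 10.2% and 10.1% of all genes were called higher and lower. The 2 called higher lay near the share over all genes. The list median was -0.33 on the log2 scale against 0.0139 over all genes. HJV, which in mammals is a coreceptor that drives hepcidin expression, fell by 1.52 (SE 0.171, adjusted p = 5.21e-06), from 42.45 ± 8.78 to 14.75 ± 2.82 CPM. TMPRSS6, the protease that cleaves that coreceptor in mammals, fell by 0.92 (SE 0.205), and SLC39A14, a metal importer, fell by 0.65 (SE 0.151). SLC11A2, the transporter that takes iron out of endosomes, rose by 1.02 (SE 0.252), and ceruloplasmin (CP), a copper-carrying ferroxidase, rose by 0.41 (SE 0.0991). The calls of TMPRSS6, SLC39A14 and SLC11A2 were lost with the replicate number in the fit.

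STEAP3, which reduces the iron that transferrin releases in endosomes, was lower in both sexes, with log2 fold changes of -0.82 in females (SE 0.127, adjusted p = 0.000138) and -0.64 in males (SE 0.143, adjusted p = 0.0155). It was the 1 of 14 iron genes called in males, where 1.03% of all genes were called lower. That male call ended without EE2 male replicate 4, 5 or 6, with the male groups fitted alone, and with the replicate number in the fit. The transferrin receptor gene TFRC stood at -0.77 in females (SE 0.425, adjusted p = 0.224) and -0.83 in males (SE 0.48, adjusted p = 0.416), without a call. It ranged from 57.08 to 292.4 CPM within solvent males alone. For HJV the female and male effects differed by -1.09 (SE 0.252, adjusted p = 0.0446), a call that leaving out 1 library ended in 14 of 20 fits.

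Retinoid genes around RBP4 shared 2 clear members across the sexes. Of 17 listed genes 12 were tested, with 1 higher and 2 lower in each sex, where the shares of all genes called higher and lower were 10.2% and 10.1% in females and 2.24% and 1.03% in males, and list medians of -0.25 in females and -0.005 in males. RARA, the alpha retinoic acid receptor, rose by 1.38 in males (SE 0.106, adjusted p = 5.37e-08) and by 1.29 in females (SE 0.0986, adjusted p = 4.96e-08). It went from 33.54 ± 2.78 to 87.17 ± 10.8 CPM in males and from 33.01 ± 2.29 to 80.91 ± 11.8 CPM in females, with every EE2 library above every solvent library of its sex. DHRS3, which reduces retinaldehyde to retinol, fell by 0.80 in males (SE 0.14, adjusted p = 0.00213) and by 1.30 in females (SE 0.125, adjusted p = 1.03e-06).

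The remaining retinoid calls were less firm. BCO1, which cleaves beta-carotene, fell by 0.92 in females (SE 0.295, adjusted p = 0.0336), a call lost in 7 of 20 fits that left out a library. ALDH1A2, which makes retinoic acid, fell by 1.03 in males (SE 0.277, adjusted p = 0.0462), lost in 13 of 20. Transthyretin, with which RBP4 circulates, had no matching symbol in the gene table used and was not analysed here.

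The genes that share a complex or a family with AMBP and AHSG fell in females in part, where 10.1% of all genes were called lower. Of 7 listed inter-alpha-inhibitor partners 4 were tested, and ITIH2 and ITIH3, heavy chains that bind bikunin, fell by 1.03 (SE 0.133, adjusted p = 2.5e-05) and 0.88 (SE 0.239, adjusted p = 0.013). ITIH2 went from 7549 ± 1390 to 3708 ± 543 CPM in females. The call of ITIH3 was lost with library totals alone. Of 4 listed cystatin-type plasma protein genes 3 were tested. FETUB, the paralog fetuin-B, fell by 1.37 in females (SE 0.163, adjusted p = 9.1e-06), from 3135 ± 361 to 1210 ± 286 CPM. HRG, a histidine-rich glycoprotein, fell by 0.63 in females (SE 0.165, adjusted p = 0.00967). The HRG call was lost with library totals alone, with totals outside the most abundant genes and with the replicate number in the fit. KNG1, the kininogen gene, stood at -0.23 (SE 0.17, adjusted p = 0.373).

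Gene order was taken from the assembly Coturnix japonica 2.1 for the 16066 genes with estimated counts only, so other genes may lie between neighbours. In that order FETUB, HRG and KNG1 are the 3 genes that follow AHSG. These 4 cystatin-family genes gave female values of -0.60, -1.37, -0.63 and -0.23. In males the same 4 stood at 0.81, -0.34, 0.10 and 0.36, and none passed in edgeR. In both lists together 0 of 7 tested genes were called in males by edgeR, by limma voom or by the Wald test of DESeq2. Of all genes, edgeR called 2.24% higher and 1.03% lower in males. At an unadjusted edgeR p under 0.05 the count in the 2 lists was also 0. Beside TF, the gene SRPRB, a subunit of the signal recognition particle receptor, rose by 0.28 in females (SE 0.0842, adjusted p = 0.0231) where TF fell. In the same order RBP4 lies next to the fatty acid receptor gene FFAR4, described further on.

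**Figure D4:**
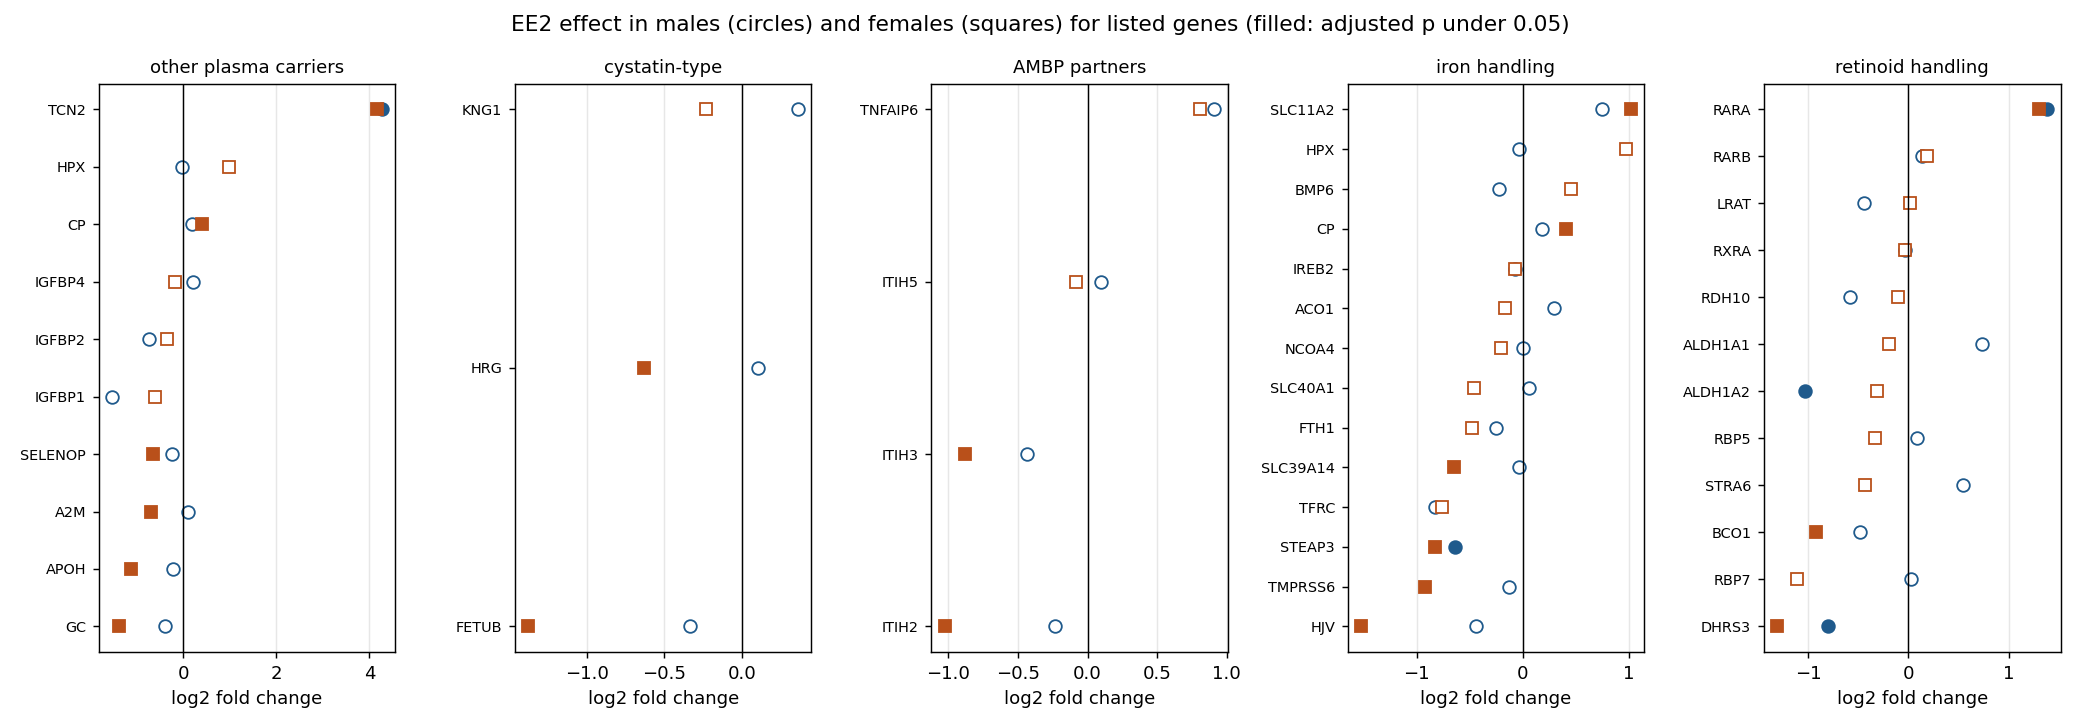
Log2 fold change with EE2 in males (circles) and females (squares) for listed genes, by list, with filled symbols for an adjusted p under 0.05. TCN2, at 4.26 in males and 4.15 in females, lies far to the right of the other carriers, and squares lie left of circles for GC, APOH, A2M, FETUB, ITIH2 and HJV.

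Other plasma carriers split into 1 that rose steeply in both sexes and several that fell in females. Of 19 listed genes 10 were tested, with 2 higher and 4 lower in females and 1 higher and 0 lower in males. Over all genes tested the shares called higher and lower were 10.2% and 10.1% in females and 2.24% and 1.03% in males. TCN2, the transcobalamin that carries cobalamin in plasma, was 28.14 to 37.67 CPM in solvent males and 288.3 to 1145 CPM in EE2 males, and 25.85 to 43.17 and 470.1 to 860.6 CPM in females. No EE2 library came near the solvent range, and the log2 fold changes were 4.26 in males (SE 0.295, adjusted p = 1.9e-08) and 4.15 in females (SE 0.284, adjusted p = 1.85e-08). Within females, APOH, a phospholipid-binding apolipoprotein, fell by 1.12 (SE 0.192), the protease inhibitor A2M by 0.70 (SE 0.165) and the selenium carrier SELENOP by 0.65 (SE 0.14).

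The vitamin D carrier GC, a relative of albumin, fell in females as albumin did. In solvent females it had a mean of 5495 ± 865 CPM (SD, n = 5), and in EE2 females one of 2106 ± 381 CPM (n = 6), so that GC fell by 1.38 on the log2 scale (SE 0.139, adjusted p = 1.51e-06). In males it was 5197 ± 619 CPM with solvent and 3988 ± 730 CPM with EE2 (log2 fold change -0.38, SE 0.154, adjusted p = 0.205). The female and male effects differed by -1.002 on the log2 scale (SE 0.206, adjusted p = 0.0293), a call lost in 6 of 20 fits that left out a library. AFP and AFM, the other listed relatives of albumin, had no matching symbol and were not analysed here.

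Among 17 tested liver transcription factors, 2 were higher and 8 lower in females, against 10.2% and 10.1% of all genes, and 2 higher and 0 lower in males, against 2.24% and 1.03%. CEBPA, which activates albumin transcription in mammals, fell by 1.02 in females (SE 0.113, adjusted p = 4.61e-06), from 264.5 ± 31.8 to 130.7 ± 11.3 CPM, and HNF4A, a nuclear receptor of hepatocytes, fell by 0.67 (SE 0.0938, adjusted p = 5.58e-05). ONECUT1, PROX1 and FOXA2 fell by 0.62, 0.54 and 0.47, and the calls of PROX1 and FOXA2 were lost with library totals alone. Those of ONECUT1 and PROX1 were lost with the replicate number in the fit. CEBPB, a relative of CEBPA that takes part in the acute phase response, rose by 1.21 in males (SE 0.125, adjusted p = 4.28e-06) and by 1.06 in females (SE 0.115, adjusted p = 3.56e-06). GATA6, the other factor called higher, rose by 0.34 in males and 0.23 in females. Leaving out 1 library ended the male call in 6 of 20 fits and the female call in 8 of 20.

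The pattern of each gene over the 20 libraries was compared with that of 7351 genes of at least 10 CPM on average, as the root mean square difference in log2 CPM after centring each gene, so that 0 means the same pattern. The libraries share the treatment and its scaling, and these likenesses are descriptions. The 3 named genes nearest to ALB were GCHFR at 0.307, GC at 0.318 and GPLD1 at 0.326, beside a median of 0.748 over the 7351 genes. Nearest to TF were C1H3orf85 at 0.232, SERPINC1, the gene of antithrombin, at 0.245 and GC at 0.248, beside a median of 0.710.

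AMBP had the closest company of the 5. RMDN1 lay at 0.089, SLC37A4, the glucose-6-phosphate transporter, at 0.115 and SERPIND1, the gene of heparin cofactor II, at 0.136, beside a median of 0.520. AHSG had the most distant, with TST at 0.517, HYI at 0.573 and PRXL2A at 0.579, beside a median of 0.853. For RBP4 the nearest were FFAR4 at 0.222, MCF2L at 0.241 and GNG5 at 0.242, beside a median of 0.423. FFAR4, the neighbour of RBP4, stood at 0.79 in males (SE 0.265, adjusted p = 0.12) and 0.57 in females (SE 0.244, adjusted p = 0.107), and passed only in the average over the sexes (0.68, SE 0.18, adjusted p = 0.0114). Among the 5 genes themselves, TF and AMBP were nearest to each other at 0.265, followed by ALB and AMBP at 0.342 and ALB and TF at 0.387, and TF and RBP4 were the farthest apart at 0.908.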

How the data were processed

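RNA was extracted from left-lobe liver on silica columns with a DNase digestion, and libraries followed Illumina procedures, per the labels' protocols. The authors deposited 2 tables of estimated counts for 40934 coding sequences, which the submitters' processing notes credit to kallisto. The version of that tool, the transcript set and the build are not given in the sources used here, so no coordinates are printed. kallisto splits a read that fits several transcripts, so near-identical copies of a gene would be uncertain. Both tables held the same values, and 52.64% of them were whole numbers.

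Estimated counts were summed per NCBI gene identifier and rounded, giving 16066 genes, each matched to the gene table of the assembly Coturnix japonica 2.1. The edgeR function filterByExpr (minimum count 10, minimum total 15) left 13501 genes with 99.9837% of the counts. No 2 libraries were identical. The main test was the two-sided robust quasi-likelihood test of edgeR 4.0.16 in R 4.3.3, with TMM scaling, 1 mean per group over the 20 libraries and Benjamini-Hochberg adjustment over all genes tested within each of 6 comparisons. It was also run on simulated counts with a spread common to all genes and changes only in EE2 females, and the outcome is not given here. SEs were derived from the fold change and its F statistic. Alternatives used limma 3.58.1, DESeq2 1.42.0, other scalings and filters, a replicate block and leaving out each library.

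Members and gene lists were chosen with earlier results of these data known. In each list other than the cell type markers, genes called for the EE2 effect in males or females were named. At most 6 with the largest change were taken, and GATA6 as well. The 3 genes of most similar pattern were named for each member. Coding lengths were not used here, so the planned levels per length were not computed. No sequences are printed.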

Additional observations from a re-analysis of the deposited data

Results flagged for a closer look

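AMBP in solvent female replicate 10 stood at 2955 CPM, far above the other 4 solvent females, which lay between 2164 and 2313 CPM. Chance alone would set apart about 1 in 20 groups by this measure, and 20 groups of libraries were looked at. As an unscaled share of counts AMBP was 0.2376% in that library, beside 0.2033% to 0.2229% in the other 4, and the library had the lowest normalisation factor of the 20, at 0.804. It also had the highest TF and ALB levels of its group, and the part of the factor in these levels was not tested.

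The EE2 effect on ALB differed between the sexes by -1.74 on the log2 scale (adjusted p = 0.0232 by edgeR's quasi-likelihood test), and 6 of 6 EE2 females lay below the solvent females while the male groups overlapped. The EE2 effect on AMBP differed by -0.84 (adjusted p = 0.0334 by the same test), with 6 of 6 EE2 females and 2 of 4 EE2 males below the solvent libraries of their sex. The AMBP call was kept in 12 of 20 fits that left out 1 library. Both the ALB and the AMBP call were lost when the fit also included the replicate number, and that fit called 0 of all genes for this difference.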

How the results depend on the processing

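The female falls of ALB, TF and AMBP kept their direction and call under each alternative run. Over the 30 results (5 genes in 6 comparisons), 577 of the values that left out 1 library kept direction and call, 17 lost the call, 3 gained one and 3 changed sign, and of the other values 391, 11, 4 and 4 did so. The cause of each change was not tested.

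Values that left out 1 library ranged from -0.0380 to 0.2420 for ALB in males, 0.3338 to 0.4827 for RBP4 in females, -0.0474 to 0.2721 for AHSG averaged over the sexes, -0.9207 to -0.7361 for the AMBP difference between the sexes' effects, -0.4894 to 0.0842 for AHSG between the sexes in solvent, and, between the sexes in EE2, -0.5817 to -0.3790 for RBP4 and -1.8467 to -1.3643 for AHSG. Without EE2 male replicate 3, ALB in males was -0.0380 and averaged AHSG -0.0474, and without solvent male replicate 8 AHSG between the sexes in solvent was 0.0842. When only the 2 groups compared were fitted, RBP4 in females was 0.3997. RBP4 between the sexes in EE2 passed at -0.4739 with DESeq2's size factors, -0.4739 with its Wald test and -0.4721 with the stricter filter. Without EE2 male replicate 3 and solvent female replicate 9 together (added after seeing the data), ALB in males was -0.0378, RBP4 in females 0.3641, averaged AHSG -0.0304 and the AMBP difference -0.7589, and between the sexes in EE2 RBP4 was -0.5818 and AHSG -1.3644.

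The labels do not say whether a replicate number pairs libraries. Of the same-numbered pairs, 2 of 10 had a correlation of deviations above 0.1, and 3 of 20 libraries correlated best with their own number. With so few libraries in a group, these correlations cannot decide whether the numbers pair libraries. With the replicate block, RBP4 was 0.9024 in males and 0.2135 in females, the differences between the sexes' effects were -1.7903 for ALB and -1.2274 for AMBP, the solvent sex values were 0.1065 for RBP4 and 0.1664 for AHSG, and the EE2 sex values were -1.1918 for ALB, -0.7995 for AMBP and -1.8744 for AHSG. All of these 9 lacked a call. Of the listed genes named above, the block ended the female calls of SLC11A2, TMPRSS6, SLC39A14, BCO1, HRG, ONECUT1, PROX1 and GATA6. It also ended the male calls of STEAP3, ALDH1A2 and GATA6, and the calls of GC and HJV for the difference between the sexes' effects.

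Genes called in males numbered 441, and 768 with the Wald test, 195 with only the male groups, 52 with the block, 254 and 234 without EE2 male replicates 4 and 5, and 677 without the added pair. In females 2737 became 5778 with library totals alone, 4219 with totals outside the most abundant genes and 877 with the block. For the interaction 143 became 2330 with library totals, 454 with the Wald test, 0 with the block, 61 without the added pair and as few as 21 without 1 library. For sex in solvent 232 became 47 with the block, and in EE2 873 became 3534 with library totals, 1626 with totals outside the most abundant genes, 1311 with the Wald test, 99 with the block, 446 without EE2 male replicate 3 and 487 without the added pair.

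Library totals alone shifted the median of all genes by 0.285 in females, 0.121 averaged, 0.329 in the interaction and 0.244 between the sexes in EE2, so that 90.2%, 79.2%, 95.9% and 90.6% of calls were higher, against 50.2%, 50%, 24.5% and 34.2%. In males 51.8% of calls were higher, against 68.5%. With totals outside the most abundant genes the shifts were 0.184, 0.119, 0.13 and 0.127 and the shares 82.2%, 80.2%, 55.1% and 74.2%. Levels per length were not run. The lowest level of the 5 genes in any library was 197 CPM.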
